A study of Mus musculus with 6 samples.

Results

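The 10 genes described here encode membrane channels and transporters of mouse sperm. They were chosen by name, with earlier results of these data known. They are 10 of the 55536 genes in the count table: Catsper1, Catsper2 and Catsper3, which encode pore subunits of the CatSper channel, Catsperb, Catsperd and Catsperg1, which encode its auxiliary subunits, and Kcnu1, Lrrc52, Slc9c1 and Atp1a4. RNA-seq measured them in whole testes of 4-month-old mice, with 2 libraries for each of 3 genotypes. WT mice were FVB/NJ. P2KO mice carried a single knockout of Padi2, in which part of exon 1 was replaced by LacZ and Neomycin sequence in a gene trap. DKO mice carried knockouts of Padi2 and Padi4, and came from 1 founder with a small deletion in exon 1 of Padi4, made by CRISPR/Cas9 in P2KO embryos. All mice were on an FVB/NJ background. Because the Padi4 edit was made in P2KO embryos, P2KO and DKO share the Padi2 allele, and Padi4 was disrupted only together with Padi2. PAD enzymes, the products of the Padi genes, convert arginine residues of proteins to citrulline.

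CatSper is a calcium channel of the sperm tail. It opens when the inside of the cell becomes more alkaline, and it is needed for the vigorous tail beat called hyperactivation and for male fertility. Kcnu1 encodes the sperm potassium channel SLO3, and Lrrc52 encodes its partner subunit. Slc9c1 encodes the sperm sodium/proton exchanger, which bears on the alkalinity of the cell, and Atp1a4 encodes the sodium pump subunit that is made in male germ cells. These genes are transcribed by germ cells in the testis during and after meiosis, and the proteins act later, in mature sperm.

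Libraries held from 21939393 to 27306679 counts on genes, and 20744 genes passed the filter on low counts, all 10 of the channel and transporter genes among them. Padi4 had 20 and 43 counts in WT, 11 and 10 in P2KO and 4 and 4 in DKO, and was lower in DKO than in WT (adjusted p = 0.000278, edgeR's quasi-likelihood test). Padi2 had 47 and 64 counts in WT, 100 and 55 in P2KO and 59 and 83 in DKO, and was not called lower. Its log2 fold change against WT was 0.40 in P2KO and 0.35 in DKO (adjusted p = 0.686 and 0.575, edgeR's quasi-likelihood test). The paper reports by RT-PCR that salivary gland of P2KO and DKO mice lacked Padi2 transcripts. Counts per gene do not show which exons the reads lie on, so they do not check the replaced part of exon 1. The tissue label was checked against marker lists, and all 10 round spermatid markers and all 12 elongating spermatid markers were tested while none of 8 epididymis markers had enough counts. The summed level of the round spermatid markers ran from 50344 to 52663 normalised counts over the 6 libraries. In whole testis, fewer cells of a type and less RNA per cell cannot be told apart.

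The promoter windows of 9 genes, 8 of the 10 and Catsper4, were found among RefSeq start sites, and none was found for Catsper1 and Kcnu1. Catsper4 encodes the remaining pore subunit, is not one of the 10, and is shown because it had the smallest adjusted p of the CatSper genes in DKO against P2KO. Its window, chr4:134227384-134227633 of GRCm38.p6 on the minus strand, holds the 250 bases before the start site. The Catsperg1 window, chr7:29214036-29214283 on the minus strand, and the part of the Catsperd window outside annotated exons, chr17:56626888-56627046 on the plus strand, are shown because each holds 1 of the motifs searched. Both genes have 2 RefSeq starts. The Catsperd window shown lies before the upstream start at 56627047 and shares bases with exons of Lonp1, while the window before the start at 56628143, where the gene annotation begins Catsperd, lacked the motif. The Catsperg1 window shown lies before the start nearer to the annotated one, at 29214033, and the window before the other start, at 29210925, lacked TATAAA. Capitals mark TATAAA in Catsperg1 and the reverse complement of TGACGT in Catsperd.
Catsper4: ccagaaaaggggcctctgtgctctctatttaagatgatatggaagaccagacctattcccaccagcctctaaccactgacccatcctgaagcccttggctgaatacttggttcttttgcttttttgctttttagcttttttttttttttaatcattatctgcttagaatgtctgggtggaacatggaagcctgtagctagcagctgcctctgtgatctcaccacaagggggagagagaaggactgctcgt
Catsperg1: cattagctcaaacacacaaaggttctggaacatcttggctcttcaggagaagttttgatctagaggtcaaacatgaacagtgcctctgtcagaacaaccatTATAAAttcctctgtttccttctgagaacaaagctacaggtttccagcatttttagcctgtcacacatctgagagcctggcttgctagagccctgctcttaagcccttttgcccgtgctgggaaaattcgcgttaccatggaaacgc
Catsperd: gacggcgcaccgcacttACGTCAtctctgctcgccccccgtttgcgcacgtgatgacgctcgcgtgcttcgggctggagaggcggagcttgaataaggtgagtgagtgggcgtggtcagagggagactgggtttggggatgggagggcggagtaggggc
The letters were searched on both strands in the 250 bases before each of 32851 RefSeq starts. The cyclic AMP response element TGACGTCA, bound in spermatids by CREM, stood in 1.55% of all windows and in none of the 9 genes. Its shorter form TGACGT, which lies within the longer one, stood in 6.47% of all windows and in 1 of the 11 windows of these 9 genes, the upstream one of Catsperd. TATAAA stood in 12.4% of all windows and in 1 of the same 11, that of Catsperg1. The Catsper2 window is not shown because in the gene annotation it lies within exons of Pdia3, a protein folding gene on the other strand. In RefSeq, Pdia3 starts inside this window, with 109 bases between the starts of the genes. Of the Catsper2 window 74.8% was G or C, against 45.2% for Catsper4 and a median of 52.4% over all windows.

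The level of each gene was compared per length, in RPKM (counts divided by the length of the merged exons and by the TMM-scaled size of the library). In WT, Atp1a4 was highest of the 10, with 255 and 238 RPKM, and above 99.1% of all tested genes. The pore genes Catsper2, with 74.5 and 77.4 RPKM, and Catsper1, with 60.3 and 53.7, followed. The auxiliary subunit gene Catsperd, at 39.1 and 41.1 RPKM, lay above the pore gene Catsper3, at 35.3 and 34.6, without overlap. Of the other auxiliary subunits, Catsperg1 had 30.8 and 29.4 RPKM and Catsperb, the lowest of the 10, had 17.0 and 16.9. Slc9c1 had 30.8 and 31.3 RPKM. Kcnu1 had 22.04 and 19.42 RPKM and its partner Lrrc52 had 17.2 and 18.9. The WT means spanned 14.5-fold from Atp1a4 to Catsperb, and even Catsperb lay above 82.9% of all tested genes. Of neighbours in this WT order, only Slc9c1 and Catsperg1 had libraries that overlapped. In DKO the libraries of Catsper1, at 69.2 and 63.6 RPKM, and of Catsper2, at 66.4 and 66.2, overlapped. With the longest transcript as the length, the 4 highest kept their order, Catsperg1 moved above Catsper3 and Catsperb above Kcnu1.

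**Figure D1:**
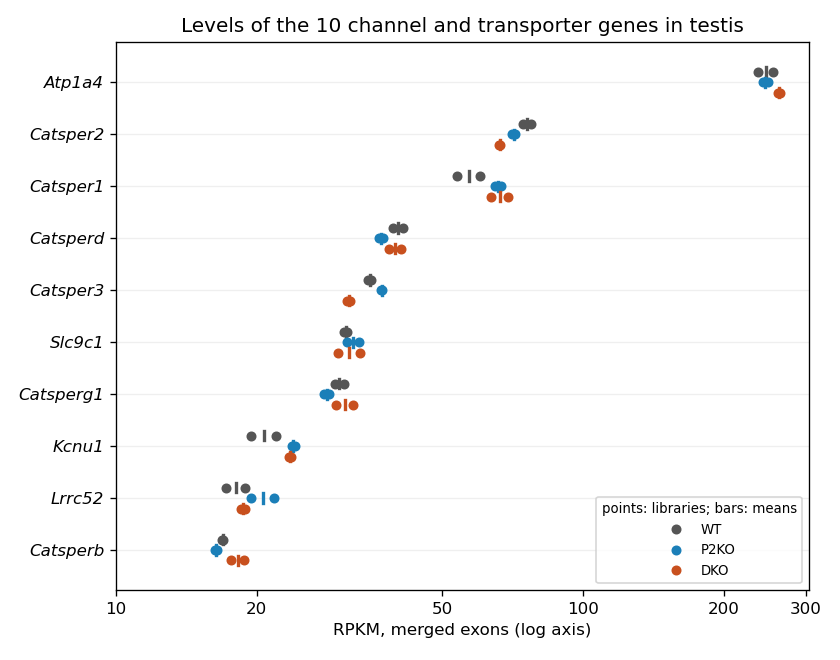
RPKM of the 10 genes (log axis) in each of the 6 libraries, ordered by the WT mean. Points are libraries, short bars are means of 2, and colours are genotypes. Atp1a4 stands apart at 238 RPKM or above in every library, and the other 9 lie between 16.3 and 77.4 RPKM.

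The first comparison set P2KO, the single knockout of Padi2, against WT. Padi4 counts were also lower in P2KO, without a call (log2 fold change -1.63, adjusted p = 0.0959, edgeR's quasi-likelihood test). On chromosomes other than 4, which hold all 10 genes, 33 of 19517 tested genes passed in this comparison (0.169%). In P2KO against WT, none of the 10 genes passed the test (adjusted p under 0.05 by edgeR's quasi-likelihood test, Benjamini-Hochberg over all tested genes), while 70 of all 20744 tested genes did (0.337%). At an unadjusted p under 0.05, 2 of the 10 passed with edgeR, against 8.57% of all tested genes, and DESeq2 called none of them at an adjusted p under 0.05. The log2 fold changes ran from -0.12 to 0.21 with a median of 0.03, against a median of 0.00 over all tested genes. The median size of the log2 fold change, without its sign, was 0.09 for the 10 genes and 0.11 for all tested genes. The interval ends furthest from 0 were a fall of 15.7% for Catsperd and a rise of 30.4% for Lrrc52. Libraries of the genotypes did not overlap for 8 of the 10 genes, against 37.5% of all tested genes. Each of the 10 had a high level among tested genes, and shares among genes of similar level were not computed for any comparison.

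Among the pore genes in this comparison, Catsper1 had normalised counts (counts scaled to a common library size) of 3237 and 2883 in WT and 3471 and 3587 in P2KO. Both P2KO libraries lay above both of WT, and the log2 fold change was 0.21 (SE 0.07, adjusted p = 0.255, edgeR). Catsper2, at -0.10, lay below WT and Catsper3, at 0.09, above it, both without overlap, and neither passed. Kcnu1 had 2021 and 1781 normalised counts in WT and 2215 and 2183 in P2KO, and its log2 fold change was 0.21 (SE 0.07, adjusted p = 0.267, edgeR). Without WT replicate 1 the log2 fold change was 0.29 for Catsper1 and 0.30 for Kcnu1, and without WT replicate 2 it was 0.12 for each. Both genes stayed above WT, and the size of the difference depended on which WT library was kept. Lrrc52, the SLO3 partner, had the fewest counts of the 10, with 483 and 530 in WT and 611 and 545 in P2KO (log2 fold change 0.19, SE 0.09, adjusted p = 0.583, edgeR). Its value was 0.10 without P2KO replicate 1 and 0.13 without WT replicate 1. The 3 auxiliary genes had small negative values, -0.05 for Catsperb, -0.12 for Catsperd and -0.09 for Catsperg1, and none passed. Slc9c1, at 0.05, and Atp1a4, at 0.00, had libraries that overlapped between WT and P2KO, and Slc9c1 was at 0.0974 without P2KO replicate 1 and at 0.0071 without P2KO replicate 2.

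**Figure D2:**
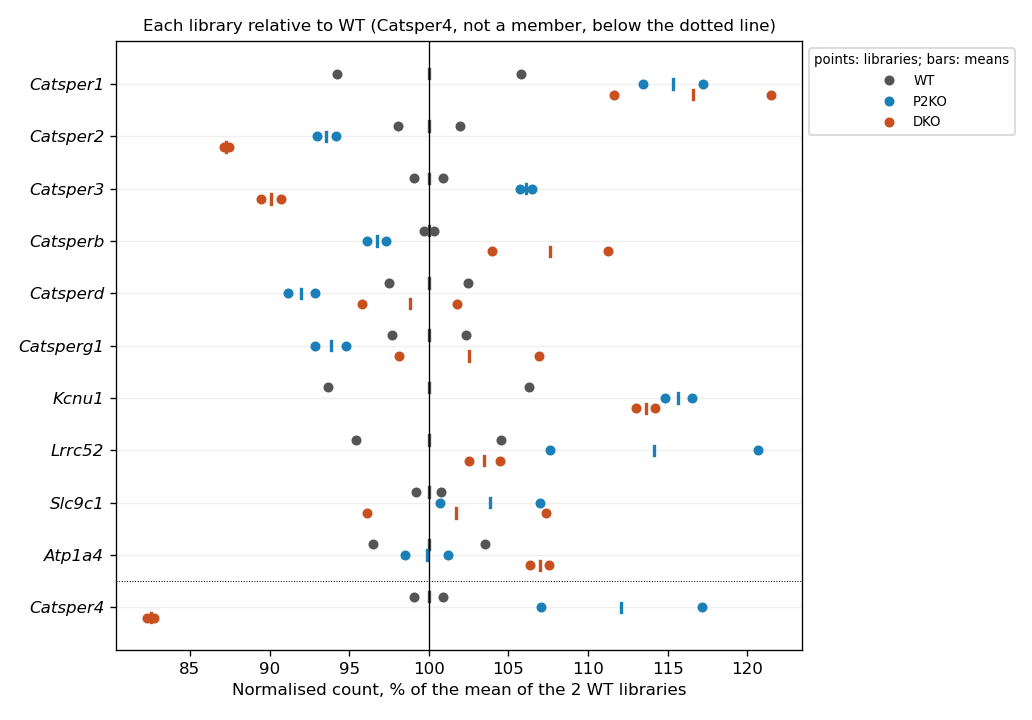
Normalised count of each gene in each library as a percentage of the mean of the 2 WT libraries. Points are libraries, short bars are means and colours are genotypes, and Catsper4 is set below the dotted line. For the 10 genes the P2KO and DKO libraries lie between 87.1% and 122% of WT, with both DKO libraries of Catsper2 near 87%, and those of Catsper4 at 82.7% and 82.3%.

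The second comparison asked what was seen with both Padi genes disrupted. In DKO against WT, 1 of the 10 genes passed the test, Catsper2, which fell. Over all tested genes 668 passed (3.22%), 240 of them lower (1.16%) and 428 higher (2.06%), or 322 lower and 367 higher with upper-quartile scaling. At an unadjusted p under 0.05, 4 of the 10 passed, against 14.1% of all tested genes. Catsper2 had 6750 and 7018 normalised counts in WT, 6481 and 6399 in P2KO and 6019 and 5997 in DKO. The DKO libraries were the lowest, those of P2KO lay in between, and no 2 genotypes overlapped. The log2 fold change in DKO against WT was -0.20 (SE 0.06, adjusted p = 0.0462, edgeR), a fall of 12.7% with a 95% interval from -0.31 to -0.08 on the log2 scale. The call stood close to the threshold. It was kept under 9 of 16 alternatives, DESeq2 among them, and the direction under all 16. It was lost without WT replicate 2 (adjusted p = 0.211), P2KO replicate 1 (0.0770) or 2 (0.0808), or DKO replicate 1 (0.215) or 2 (0.294), and the log2 fold change then lay between -0.20 and -0.17. It was also lost with the replicate number as a block (adjusted p = 0.0610) and in a fit of WT and DKO alone (0.0633).

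Pdia3, whose exon overlaps that of Catsper2 on the other strand in the gene annotation, had a log2 fold change of 0.07 in DKO against WT (adjusted p = 0.682, edgeR). Which of the strand settings the deposited counts used was not stated in the sources used here, so reads from the overlap may belong to either gene. The elongating spermatid markers Tnp1 (log2 fold change -0.25, adjusted p = 0.0130, edgeR) and Prm1 (-0.22, adjusted p = 0.0302) also fell in DKO. They encode proteins that pack DNA in the sperm head. Of that list 2 of 12 markers were called lower and none higher, against 1.16% and 2.06% of all tested genes. The log2 fold change was positive for 4 of the 12 and negative for 8, with a median of -0.04. The summed level ran from 656305 to 662958 normalised counts in WT and from 616479 to 635733 in DKO. The P2KO libraries had 580376 and 625767, and the median in P2KO against WT was -0.08. None of the 10 round spermatid or 10 spermatocyte markers passed in DKO against WT. The part of these shifts in the Catsper2 value was not tested.

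Catsper1, the pore subunit after which the complex is named, had 3718 and 3416 normalised counts in DKO, both above the 3237 and 2883 of WT. Its log2 fold change of 0.22 (SE 0.07, adjusted p = 0.0512, edgeR) missed the threshold, with a 95% interval from 0.09 to 0.36. It passed under 6 of 16 alternatives, among them RLE size factors (adjusted p = 0.0464), a correction for gene length (0.27, adjusted p = 0.00855) and the fit without WT replicate 1 (0.30, adjusted p = 0.00174). Without WT replicate 2 it was 0.14 (adjusted p = 0.500). Catsper3 had 1177 and 1156 normalised counts in WT and 1044 and 1058 in DKO, with no overlap (log2 fold change -0.15, SE 0.07, adjusted p = 0.345, edgeR), and the length correction brought it to -0.08. Kcnu1, at 2149 and 2171 in DKO, again lay above WT (log2 fold change 0.19, SE 0.07, adjusted p = 0.155, edgeR) and passed only without WT replicate 1 (0.27, adjusted p = 0.0159), while without WT replicate 2 it was 0.095 (adjusted p = 0.795). Lrrc52, with 519 and 529 in DKO, overlapped WT (0.05).

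The auxiliary subunits differed little from WT in DKO. Catsperb had 2302 and 2287 normalised counts in WT and 2386 and 2553 in DKO, both above WT (log2 fold change 0.11, SE 0.06, adjusted p = 0.496, edgeR, and 0.06 without DKO replicate 2). Catsperd (-0.02) and Catsperg1 (0.04) overlapped WT. Catsperg1 has a near-identical copy, Catsperg2, at 96.3% identity over 4411 aligned nucleotides, so reads may be split between the pair. The ratio of their counts ran from 1.24 to 1.31 over the 6 libraries. Slc9c1 overlapped WT (0.02), and Atp1a4 had 22927 and 21370 normalised counts in WT and 23559 and 23821 in DKO (log2 fold change 0.10, SE 0.05, adjusted p = 0.430, edgeR, and 0.05 without WT replicate 2). Over the 10 genes the median log2 fold change was 0.04, against 0.00 over all tested genes, and libraries did not overlap for 6 of 10, against 43.2% of all tested genes. No interval of the 10 reached beyond a fall of 19.4% (Catsper2) or a rise of 28.0% (Catsper1).

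**Figure D3:**
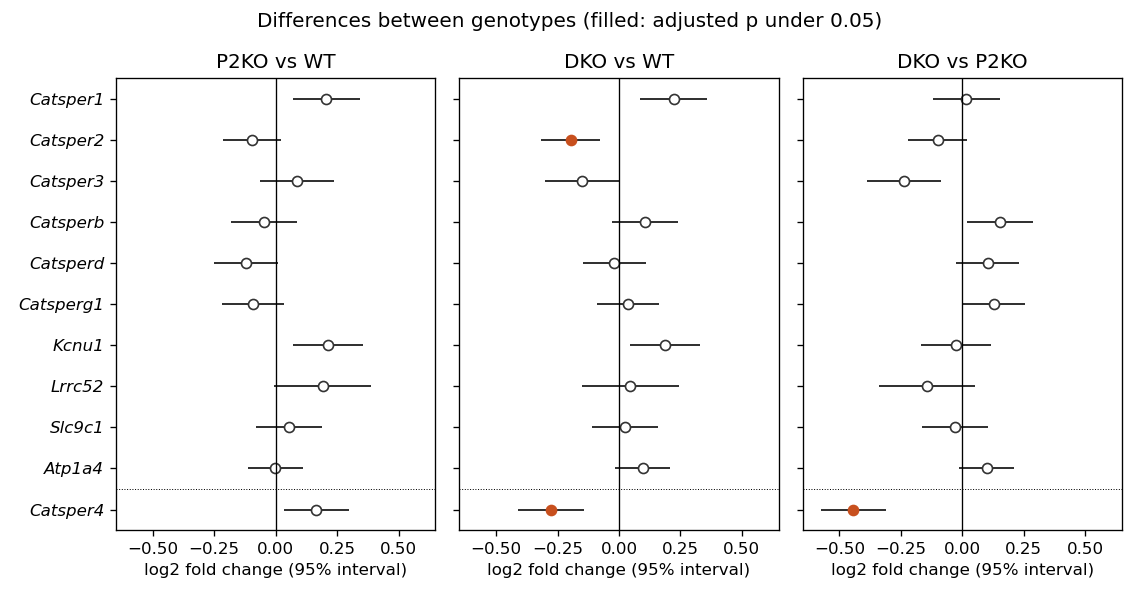
Log2 fold change of each gene with its 95% interval (edgeR) in the 3 comparisons, with Catsper4 below the dotted line. Filled points have an adjusted p under 0.05, which of the 10 genes only Catsper2 reached, in DKO against WT, and which Catsper4 reached in both comparisons with DKO.

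The third comparison set DKO against P2KO. These lines differ by the Padi4 allele, and any other differences between the lines cannot be told apart from it. This comparison shares its libraries with the others, so that the values are given side by side and not as separate evidence. None of the 10 genes passed, against 250 of all tested genes (1.21%), and 3 passed at an unadjusted p under 0.05, against 11.8%. DESeq2 called none of the 10 either. Catsper3 came closest, with 1243 and 1234 normalised counts in P2KO against 1044 and 1058 in DKO. The log2 fold change of -0.24 (SE 0.07, adjusted p = 0.114, edgeR) passed in the fit of P2KO and DKO alone (adjusted p = 0.0472), without WT replicate 1 (0.0492) and without WT replicate 2 (0.0463). The 3 auxiliary genes all lay higher in DKO without overlap, at 0.15 for Catsperb, 0.10 for Catsperd and 0.13 for Catsperg1, and none passed. Without DKO replicate 2, Catsperd was at 0.06 and Catsperg1 at 0.07. Atp1a4, at 0.10, also lay higher without overlap, and Catsper2 (-0.10), Lrrc52 (-0.14) and Kcnu1 (-0.03) lay lower without overlap, none of them passing. Lrrc52 was at -0.06 without P2KO replicate 1. Catsper1 (0.02) and Slc9c1 (-0.03) overlapped. The median over the 10 was -0.01, and libraries did not overlap for 8 of 10, against 42.8% of all tested genes.

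Of 11 further genes for subunits and regulators of CatSper, all were tested, and 2 passed the test in at least 1 comparison. Catsper4 was lower in both comparisons with DKO, and C2cd6 was higher in DKO than in WT. Of all tested genes 1.16% were called lower and 2.06% higher in DKO than in WT, and 0.598% were called lower in DKO than in P2KO. Catsper4, at chr4:134211970-134227383 of GRCm38 (minus strand), fell in DKO. It had 2897 and 2845 normalised counts in WT, 3363 and 3073 in P2KO and 2376 and 2363 in DKO. The DKO libraries were the lowest and those of P2KO the highest, without overlap. The log2 fold change was -0.44 in DKO against P2KO (SE 0.06, adjusted p = 2.53e-05, edgeR), -0.28 in DKO against WT (SE 0.06, adjusted p = 0.00748) and 0.17 in P2KO against WT (adjusted p = 0.414, and 0.10 without P2KO replicate 1). Against P2KO the call was kept under all 15 alternatives that include the gene, and against WT under 13, being lost without DKO replicate 1 (adjusted p = 0.0853) or 2 (0.127).

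The gene lies 6.68 Mb from Padi2 and 6.52 Mb from Padi4 on the same chromosome. In DKO against P2KO, 67 of 1227 tested genes of chromosome 4 passed the test, 5.46%, against 0.938% on other chromosomes. Within 10 Mb of Padi2, 34 of 318 passed, 10.7%. In DKO against WT the corresponding shares were 10.9%, 2.74% and 27.4%, and in P2KO against WT 3.02%, 0.169% and 11.3%. Whether position bears on the Catsper4 value was not tested. None of the 10 channel and transporter genes lies on chromosome 4.

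C2cd6, which encodes a subunit that takes part in bringing the complex to the tail, rose in DKO. It had 7248 and 6614 normalised counts in WT, 7182 and 7837 in P2KO and 8598 and 8848 in DKO, and both DKO libraries lay above all others. The log2 fold change against WT was 0.33 (SE 0.06, adjusted p = 0.000402, edgeR), a call kept under all 16 alternatives, and against P2KO 0.22 (adjusted p = 0.0645). The other 9 did not pass in any comparison. Efcab9, a calcium sensor of the complex, had log2 fold changes of 0.22, 0.11 and -0.11 in P2KO against WT, DKO against WT and DKO against P2KO. Its partner Catsperz had -0.02, -0.11 and -0.09. Tmem262 had 0.09, -0.26 and -0.35 (adjusted p = 0.0982 in the last, edgeR), and its exons overlap those of Zfpl1 on the other strand. Catspere1, which the annotation lists as a pseudogene, had -0.08, 0.08 and 0.16, and Catspere2 had -0.22, 0.01 and 0.23. Catsperg2 (-0.07, 0.09 and 0.16), Tmem249 (0.02, -0.06 and -0.08), Slco6c1 (0.00, 0.08 and 0.08) and Trim69 (-0.04, -0.03 and 0.01) stayed within a log2 fold change of 0.2 in each comparison.

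The relative transcript levels of the pore genes were read as the share of each in the summed RPKM of Catsper1 to Catsper4, a measure within each library that needs no scaling between libraries. The shares of a library add up to a whole, so that a lower share of one gene raises the others by construction. Catsper1 made up 26.7% and 24.3% in WT, 27.1% and 28.6% in P2KO and 32.5% and 30.7% in DKO. Catsper4 made up 24.8% and 25.0% in WT, 27.3% and 25.5% in P2KO and 21.6% and 22.1% in DKO. Catsper2 made up 32.9% and 35.0% in WT, 30.0% and 30.2% in P2KO and 31.2% and 31.9% in DKO, and Catsper3 between 14.7% and 15.8% in all 6 libraries. Both DKO libraries held the highest shares of Catsper1 and the lowest of Catsper4. The ratio of Catsper1 to Catsper2 counts, a pair chosen after their values were seen, was 0.479 and 0.411 in WT, 0.536 and 0.560 in P2KO and 0.618 and 0.570 in DKO. The ratio of Kcnu1 to Lrrc52 counts ran from 3.36 to 4.18, and the WT libraries held both ends of that range. These shares and ratios are given as a description, with no test.

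Including those 11, the lists of other channels, exchangers, pumps and carriers of sperm held 66 genes found in the table, of which 58 were tested. None passed in P2KO against WT with edgeR or DESeq2 (12 of 58 at an unadjusted p under 0.05 with edgeR, against 8.57% of all tested genes), 4 were higher and 1 lower in DKO against WT (against 2.06% and 1.16% of all tested genes), and 1 was lower in DKO against P2KO, which was Catsper4 again (against 0.598%). At an unadjusted p under 0.05, 15 of 58 passed in DKO against WT and 14 of 58 in DKO against P2KO, against 14.1% and 11.8% of all tested genes. Their median log2 fold change was -0.01, 0.03 and 0.01 in the same order. Besides C2cd6 and Catsper4, 3 genes passed in DKO against WT. Adcy10, the soluble adenylyl cyclase that answers bicarbonate in sperm, had 11211 and 10017 normalised counts in WT and 12174 and 12485 in DKO (log2 fold change 0.22, SE 0.06, adjusted p = 0.0274, edgeR). Cacna1h, a low-voltage-activated calcium channel, had 6749 and 5386 in WT and 7073 and 7419 in DKO (0.26, SE 0.07, adjusted p = 0.0308). Atp2b4, the plasma membrane calcium pump of the sperm tail, had 2934 and 2538 in WT and 3208 and 3363 in DKO (0.27, SE 0.07, adjusted p = 0.0263). These calls were lost without WT replicate 2, at 0.14 for Adcy10 (adjusted p = 0.377), 0.10 for Cacna1h (0.679) and 0.16 for Atp2b4 (0.380). They were also lost without DKO replicate 1 (adjusted p = 0.139, 0.128 and 0.117) and without DKO replicate 2 (0.290, 0.354 and 0.328). With a correction for gene length the log2 fold changes were 0.14, 0.17 and 0.15, and the calls were again lost (adjusted p = 0.160, 0.152 and 0.274). The Cacna1h call was lost too with DESeq2 (adjusted p = 0.534), in the fit of 2 genotypes (0.0647) and with the replicate number as a block (0.0720). That of Atp2b4 was lost with DESeq2 (adjusted p = 0.0626) and the block (0.0645), and that of Adcy10 in the fit of 2 genotypes (0.0601). Without WT replicate 1, Cacna1h was 0.42 (adjusted p = 1.7e-07). In DKO against WT the median log2 fold change rose with exon length, from -0.10 in genes of up to 1000 nucleotides to 0.10 in genes above 8000.

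**Figure D4:**
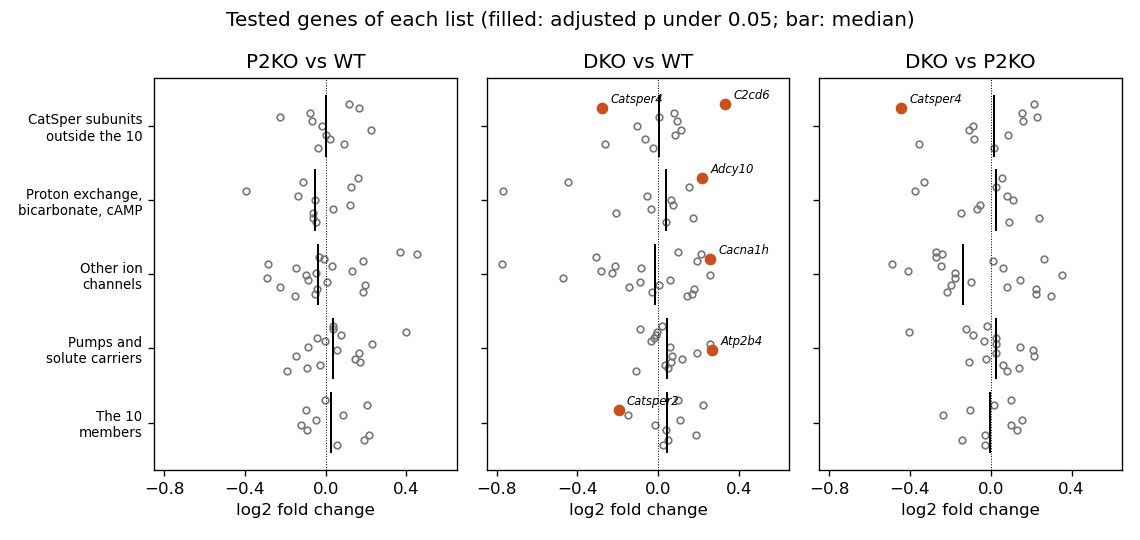
Log2 fold change of every tested gene of the 4 lists of further sperm channels and transporters, and of the 10 genes, in the 3 comparisons. Each point is a gene, filled and named where its adjusted p was under 0.05, and bars are medians. Medians of the 4 lists lie between -0.14 and 0.04, and 6 filled points stand in DKO against WT, none in P2KO against WT and 1 in DKO against P2KO.

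Among themselves the 10 genes did not move as a block. Over the 6 libraries the Pearson correlation of log2 CPM was highest for Catsper1 and Kcnu1 (0.91) and for Catsperb and Catsperg1 (0.88), and lowest for Catsper3 and Catsperb (-0.88), of 45 pairs. The mean of their centred profiles ranged from -0.04 to 0.03 on the log2 scale. The 5 genes most like this mean profile, of 17275 genes outside the list, were Pole (Pearson 0.997), Ipmk (0.992), Zkscan1 (0.990), Igsf3 (0.989) and Nt5dc3 (0.989). Of those genes 163 had a Pearson correlation of at least 0.9 with the mean profile and 36 a Spearman correlation of 1. These values are a description over 6 libraries of 3 genotypes, and all genes of a library were read at its depth and with its scaling.

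Of the markers of other cells, 4 of 8 Leydig cell genes rose and 1 fell in DKO against WT, against 2.06% and 1.16% of all tested genes. Those that rose were Star (log2 fold change 0.51, adjusted p = 0.000159, edgeR), Hsd3b6 (0.41, adjusted p = 0.000308), Cyp17a1 and Cyp11a1, and Hsd3b1 fell (-0.46, adjusted p = 0.000273). In P2KO against WT, Tnp2 of the elongating spermatid list was lower (-0.29, adjusted p = 0.000762), and 11 of its 12 markers had a negative log2 fold change. In DKO against P2KO, Spaca1 of the round spermatid list was lower (-0.25, adjusted p = 0.0402) and Hsd3b6 higher (0.63, adjusted p = 2.93e-07). Car3 of the adipose list, with at most 27.8 normalised counts in a library, passed in both comparisons with P2KO. No gene of the spermatogonia, spermatocyte, Sertoli cell, macrophage or blood lists passed in any comparison with edgeR, and 8, 5 and 7 of their 41 tested genes had an unadjusted p under 0.05 in P2KO against WT, DKO against WT and DKO against P2KO, against 8.57%, 14.1% and 11.8% of all tested genes. All 10 Sertoli cell markers had a positive log2 fold change in P2KO against WT (median 0.11) and a negative one in DKO against P2KO (median -0.14), which share the P2KO libraries. Over all tested genes 49.0% and 50.8% were negative in these comparisons.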

How the data were processed

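RNA from testes of WT, P2KO and DKO mice was poly(A)-selected and sequenced from directional libraries by the authors. Per the labels and the methods, reads were trimmed with Trim Galore and cutadapt, aligned to GRCm38 with STAR and counted per gene, and the deposited table holds these raw counts, with no filter. Versions were not given in the sources used here. Every column was mapped to a genotype by its label.

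The tests were run with edgeR 4.0.16 under R 4.3.3. Genes were kept by filterByExpr (minimum count 10), libraries were scaled by TMM, and all 6 entered 1 quasi-likelihood fit with a term for genotype (3 residual degrees of freedom). Adjusted p-values are Benjamini-Hochberg values over 20744 genes. The standard error is the size of the log2 fold change divided by the square root of F. The script was tested on simulated data. Positions, exon lengths and overlaps came from GENCODE mouse release 21, promoter windows from RefSeq (GRCm38.p6), and near-identical copies from BLAST (at least 95% identity over at least 150 nucleotides). Libraries of 1 genotype differed by more than sampling noise. P-values rest on the spread between 2 mice per genotype, moderated by the spread shared over all genes (31.2 prior degrees of freedom).

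The 10 genes and the gene lists were chosen with earlier results of these data known. Genes named are the 10, called genes of the wider lists, the CatSper list in full, at most 3 called genes per marker list with the smallest adjusted p (for Leydig cells 2 more were named after their values were seen), and the 5 most similar genes. Alternatives were RLE and upper-quartile scaling, no filter, a mean of at least 50 counts, DESeq2 1.42.0, fits of 2 genotypes, the replicate number as a block, a length correction with and without the block, genes off chromosome 4, and each library left out.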

Additional observations from a re-analysis of the deposited data

How the results depend on the processing

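The 30 values of the 10 genes (3 comparisons each) were refitted under 16 alternatives, and 446 of 480 refits had the direction and the call given above. Values near 0 changed sign. The log2 fold change of Atp1a4 in P2KO against WT was 0.0044 with the length correction and 0.0045 with the block added, and lay between -0.0527 and 0.0459 without each library. Catsperg1 in DKO against WT was -0.0163 and -0.0168 with the length correction without and with the block, and between -0.0275 and 0.0918 without each library. Without each library in DKO against WT, Catsperd lay between -0.0631 and 0.0196, Lrrc52 between -0.0201 and 0.1159 and Slc9c1 between -0.0583 and 0.097. In DKO against P2KO, Catsper1 lay between -0.05 and 0.0764 and Slc9c1 between -0.1103 and 0.0452. No sign changed under another scaling or filter, with DESeq2 or with the block alone.

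In P2KO against WT, the count of all tested genes called was 140 with no filter, 41 with DESeq2, 45 with the block, 24 off chromosome 4 and between 53 and 311 without each library. None of the 10 genes was called under any setting except without WT replicate 1, so that the range was 0 to 2. The wider list had 1 call with no filter and 0 to 2 without each library.

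In DKO against WT, all tested genes called numbered 404 with DESeq2 and between 250 and 1065 without each library. Of the 10 genes, 2 were called with RLE size factors, no filter, a mean of at least 50 counts and the length correction with or without the block, 0 in the fit of 2 genotypes and with the replicate block, and 0 to 3 without each library. The wider list had 3 calls with DESeq2, in the fit of 2 genotypes and with the block, 2 with the length correction with or without the block, and 1 to 5 without each library.

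In DKO against P2KO, all tested genes called numbered 162 with DESeq2, 579 in the fit of 2 genotypes and between 108 and 622 without each library, the highest of these without a WT library. Of the 10 genes, 1 was called in the fit of 2 genotypes, and 0 to 1 without each library. The wider list had 2 calls with RLE size factors, upper-quartile scaling or the length correction with the block, 3 with no filter or the length correction alone, 8 in the fit of 2 genotypes, 0 off chromosome 4 and 1 to 8 without each library.

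The sources used here did not say whether the replicate numbers pair the libraries. Correlations of same-numbered libraries' deviations from their genotype means lay between -0.06 and 0.06. With so few libraries per genotype, these values cannot decide whether the numbers carry a pairing. The causes of the differences between settings were not tested. Standard errors of the 10 genes ran from 0.05 to 0.10 on the log2 scale.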
